A study of Saccharomyces cerevisiae with 6 samples.

Results

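Glutathione synthesis and the glutathione transferases of budding yeast were followed through 8 genes, chosen by name as GSH1, GSH2 and GLR1 for synthesis and reduction and GTT1, GTT2, ECM4, GTO1 and GTO3 for the transferases. Each of the 8 had 1 feature among the 6912 features of the array, and all 8 were among the 5349 named genes that could be tested. Treated cells were Saccharomyces cerevisiae strain S288C, the strain of the reference genome, kept for 2 h in 3.3 mM tetrachloroethylene, a chlorinated solvent, in rich glucose medium (YPD) at 25 °C, and their cDNA carried Cy5. Control cells came from the exponential culture before the solvent was added, and their cDNA carried Cy3. The 3 hybridisations came from independent biological samples, and each array was read with high and with low laser power, which gives 6 columns but an n of 3.

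Glutathione is a tripeptide of glutamate, cysteine and glycine that keeps thiols reduced and takes up reactive compounds. GSH1 encodes the enzyme that joins glutamate to cysteine, the rate-limiting step, GSH2 encodes the synthetase that adds glycine, and GLR1 encodes the reductase that uses NADPH to return oxidised glutathione to its reduced form. Transferases join glutathione to electrophilic compounds or use it to reduce other thiols. GTT1 encodes a transferase of the endoplasmic reticulum membrane, GTT2 encodes a further transferase, and GTO1, ECM4 (also called GTO2) and GTO3 encode the omega-class enzymes, of which GTO1 is peroxisomal. In mammals, conjugation to glutathione is one of the routes by which tetrachloroethylene is metabolised.

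Every value below is a log2 ratio of treated over untreated cells in 1 hybridisation, unless named otherwise. It is the mean of the high and low power scans, or the single scan where the other held no value. An error after ± is the SD over 3 hybridisations. Base and direction are not stated with the deposited ratios. They were read as log2 and as Cy5 over Cy3, after the convention for 2-channel values and the dye labels, and each sign and fold depends on that. Treated RNA always carried Cy5, and untreated cells were taken only at the start, so a dye effect, the elapsed time and the solvent cannot be told apart. In these cultures fewer transcripts per cell and fewer cells with the transcript also cannot be told apart. Scan medians lay between -0.06 and -0.02. Hybridisation 1 stood apart, with a correlation across genes of 0.562 with hybridisation 2 and 0.556 with hybridisation 3, where hybridisations 2 and 3 had 0.836. Across its genes the SD was 0.899, against 0.649 in hybridisation 2 and 0.669 in hybridisation 3.

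After 2 h in the solvent 3 of the 5 transferase genes rose, ECM4, GTO3 and GTT1, while GTO1 and GTT2 had positive means that did not pass. None of the 3 genes of synthesis and reduction passed in either direction, and all 3 of their means were negative. The 3 calls were lost without hybridisation 3. The adjusted p by limma was then 0.0669 for ECM4, 0.0737 for GTO3 and 0.0952 for GTT1. Their means there were 2.01, 2.13 and 1.24, on a fit that called 1 gene of 5349. Without hybridisation 1 all 5 transferases rose, on a fit with a variance shared by all genes. That fit called 20.8% of all genes higher and 21.9% lower. By limma, with Benjamini-Hochberg adjustment over the 5349 genes and a threshold of 0.05, 3 of the 8 genes were higher, 0 were lower and 5 did not pass. Of all tested genes 9.14% were called higher and 11.9% lower, 21.0% in all. At an unadjusted p under 0.05, 6 of the 8 passed, where 38.6% of all genes did, with 4 higher (17.7% of all genes) and 2 lower (20.9%). For 7 of the 8 the 3 hybridisations shared a sign, as for 58.8% of all genes. The ratio was positive throughout for 4 transferases (27.5% of all genes) and negative throughout for the 3 genes of synthesis and reduction (31.3%).

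ECM4 (YKR076W), the omega-class transferase of the cytosol, had log2 ratios of 1.80, 2.22 and 2.60 in hybridisations 1, 2 and 3. The 3 values were all far above 0, at the 96.8, 99.7 and 99.7 percentiles of the tested genes of their arrays. The mean was 2.21 ± 0.40, or 4.61-fold, with a 95% interval of 1.69 to 2.72 and an adjusted p of 0.00733 by limma. By its mean, ECM4 was the 13th highest of the 5349 genes. Its lowest value, in hybridisation 1, came from the high power scan alone, since the low power scan held no value for it.

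GTO3 (YMR251W), a further cytosolic omega-class transferase, had log2 ratios of 2.64, 1.62 and 1.52. Here hybridisation 1 was the high one and the other two lay close together. The mean was 1.93 ± 0.62, or 3.81-fold, with a 95% interval of 1.31 to 2.55 and an adjusted p of 0.00965 by limma, the 29th highest mean. The value of hybridisation 1 again rested on the high power scan alone. In hybridisation 2 the scans read 1.17 at high power and 2.07 at low power, a gap of 0.89, where the median gap over all features of that array was 0.350. Without hybridisation 1 the mean of GTO3 was 1.57, close to that of GTT1 in the same hybridisations (1.48).

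GTO1 (YGR154C), the peroxisomal omega-class transferase, had log2 ratios of 0.34, 0.75 and 0.67. The first of these, in hybridisation 1, came from the high power scan alone. It was above 0 in each hybridisation, but its mean of 0.59 ± 0.22 (1.504-fold, 95% interval 0.14 to 1.04) had an adjusted p of 0.0671 by limma and did not pass. The adjusted p by limma fell to 0.000743 without hybridisation 1, on a fit with a variance shared by all genes. With the 6 scans fitted with hybridisation as a random block it was 0.0253, but there scans of 1 array count as partly separate values. After scaling between arrays it was 0.0416, and after quantile normalisation 0.0459. In 8 of its 12 alternatives GTO1 did not pass, as in the main setting.

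GTT1 (YIR038C), the transferase of the endoplasmic reticulum membrane, had log2 ratios of 0.88, 1.60 and 1.36. Hybridisation 1 was lowest and its scans differed most, with 0.59 at high power and 1.18 at low power. The mean was 1.28 ± 0.37, or 2.43-fold, with a 95% interval of 0.78 to 1.78 and an adjusted p of 0.0122 by limma.

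GTT2 (YLL060C) was the only one of the 8 genes whose sign differed between hybridisations. Its log2 ratios were -0.24, 0.87 and 1.14, and its scans had the same sign within each hybridisation, with -0.15 and -0.33 in hybridisation 1. In hybridisation 1 GTT2 lay at the 42.3 percentile of all genes, and in hybridisations 2 and 3 at the 92.0 and 94.9 percentiles. The mean of 0.59 ± 0.73 had a 95% interval of -0.09 to 1.27 and an adjusted p of 0.179 by limma. Its SD was at the 90.6 percentile of the SDs of all tested genes, the highest of the 8. Without hybridisation 1 the mean was 1.00 and GTT2 passed (adjusted p = 1.11e-06 by limma). That p rests on a variance shared by all genes, since limma estimated an infinite prior degree of freedom for hybridisations 2 and 3 alone.

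**Figure D1:**
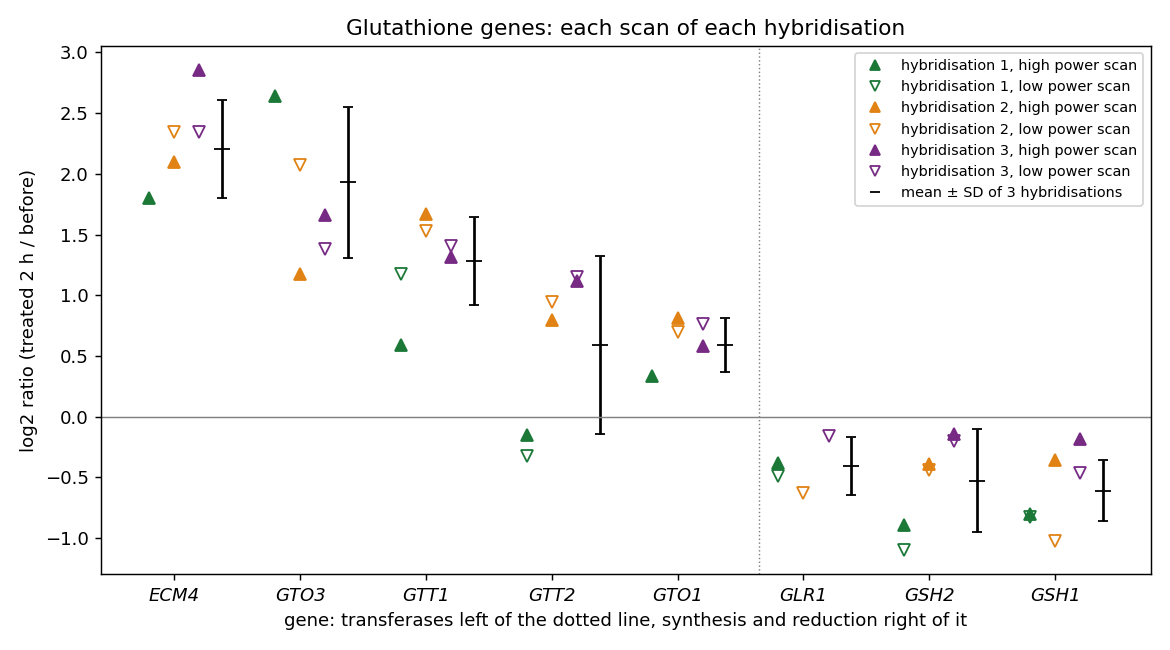
Log2 ratio of treated over untreated cells (vertical axis) for the 8 genes (horizontal axis), with filled triangles for high power scans, open triangles for low power scans, a colour for each of the 3 hybridisations, and the mean ± SD over hybridisations in black. ECM4, GTO3, GTT1 and GTO1 lie above 0 in every scan that read them, GTT2 lies below 0 in hybridisation 1 only, and GLR1, GSH2 and GSH1 lie below 0 in every scan that read them.

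GSH1 (YJL101C), the enzyme of the rate-limiting step, had log2 ratios of -0.81, -0.69 and -0.32. All were below 0, and hybridisation 3 was nearest to it. The mean was -0.61 ± 0.25, with a 95% interval of -1.07 to -0.15, an unadjusted p of 0.0167 and an adjusted p of 0.0651 by limma, so GSH1 did not pass. It passed in 4 of 14 alternatives. By limma the adjusted p was 0.0210 without hybridisation 1, on a fit with a variance shared by all genes. With the 6 scans fitted with hybridisation as a random block it was 0.0356, where scans of 1 array count as partly separate values. The adjusted p was 0.0458 with the low power scan alone and 0.0458 after quantile normalisation. In hybridisation 2 the scans of GSH1 read -0.35 at high power and -1.02 at low power.

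GSH2 (YOL049W), the glutathione synthetase, had log2 ratios of -0.996, -0.41 and -0.17. The value in hybridisation 1 was the lowest of all 24 values of the 8 genes, and the scans differed by 0.04 in hybridisation 2 and 0.05 in hybridisation 3. The mean of -0.53 ± 0.42 had a 95% interval of -1.05 to -0.0043 and an adjusted p of 0.127 by limma. With the scans in a random block, where scans of 1 array count as partly separate values, the adjusted p by limma was 0.0484.

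GLR1 (YPL091W), the glutathione reductase, had log2 ratios of -0.43, -0.63 and -0.16. In hybridisations 2 and 3 the high power scan held no value for it, as for 772 and 555 of the 5513 named features, so both values came from the low power scan alone. The mean of -0.41 ± 0.24 had a 95% interval of -0.86 to 0.05 and an adjusted p of 0.163 by limma. GLR1 passed in 0 of 11 alternatives by limma, with adjusted p between 0.0784 and 0.638, and its unadjusted p was 0.0706.

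The intervals of these 3 genes together reach from -1.07 to 0.05 on the log2 scale. For GLR1 the interval includes 0. They are not adjusted for the number of genes.

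**Figure D2:**
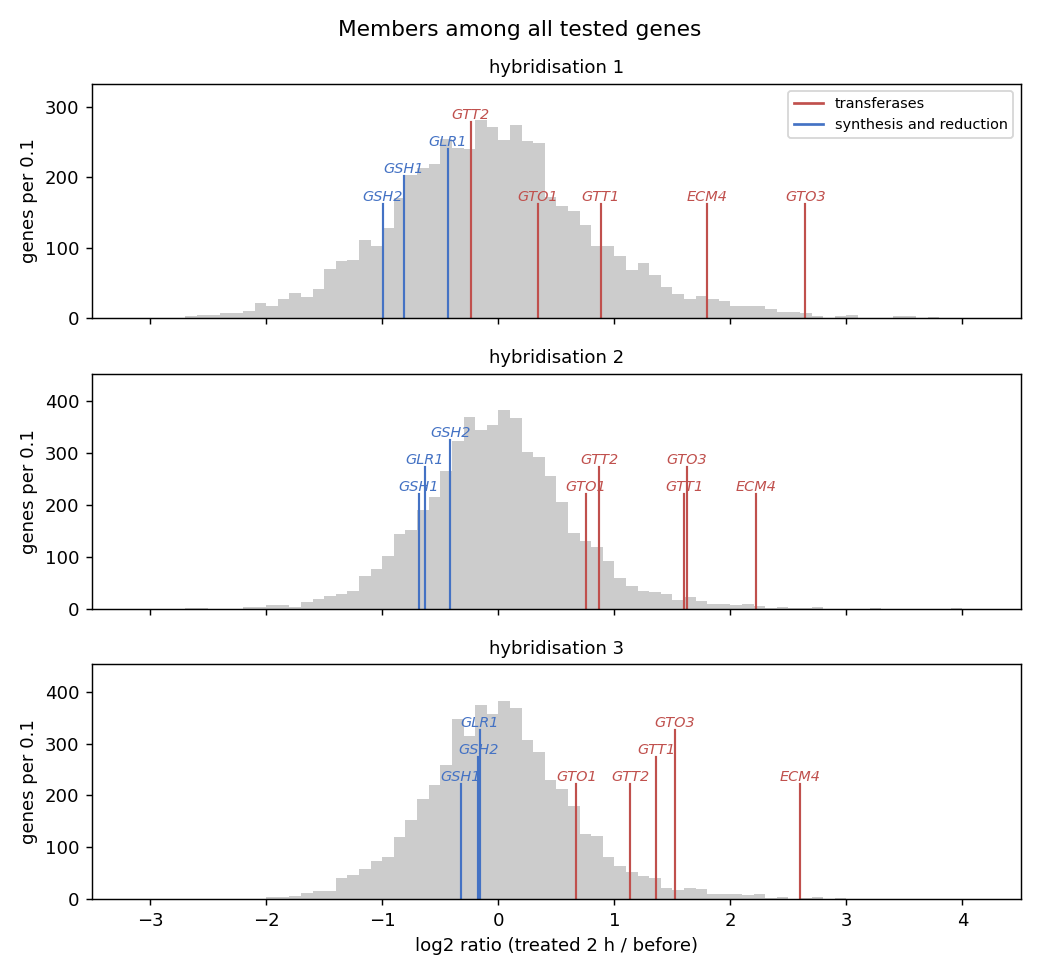
Histograms of the log2 ratio of treated over untreated cells for the 5349 tested genes (genes per bin of 0.1 on the vertical axis), a panel for each hybridisation, with lines at the transferases in red and at the genes of synthesis and reduction in blue. ECM4 and GTO3 lie in the right tail of each panel, GTT2 lies in the body of the distribution in hybridisation 1 and in the right shoulder in hybridisations 2 and 3, and the blue lines lie left of the centre.

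Within each array the transferases stood above the genes of synthesis and reduction. The median over the 5 transferases was 0.88, 1.60 and 1.36 in hybridisations 1, 2 and 3, in each of them the value of GTT1, against -0.81, -0.63 and -0.17 for the median of GSH1, GSH2 and GLR1. The difference, transferases minus synthesis and reduction, was 1.70, 2.23 and 1.53, with a mean of 1.82 ± 0.37 (SD, n = 3 hybridisations). No test is given for it, because the genes were grouped with results of these data known. Over all 5349 genes the median of the mean ratios was -0.02, so the transferases (1.28 for the median of their means) lay above it and the genes of synthesis and reduction (-0.53) below it.

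The gap between the sets was narrow in hybridisation 1 and wide in the others. In hybridisation 1 the lowest transferase was GTT2 at -0.24, against GLR1 at -0.43 as the highest gene of synthesis and reduction, a gap of 0.20. In hybridisation 2 the lowest transferase was GTO1 at 0.75, against GSH2 at -0.41, a gap of 1.17. In hybridisation 3 it was GTO1 at 0.67, against GLR1 at -0.16, a gap of 0.83. All 15 pairs of a transferase and a gene of synthesis or reduction had a positive difference in all 3 hybridisations, which follows from sets that did not overlap on any array. How often gene pairs at large keep their order in this way was not counted. The mean difference was widest for ECM4 minus GSH1 (2.81 ± 0.18) and narrowest for GTO1 minus GLR1 (0.997 ± 0.34). ECM4 minus GSH2 was the steadiest of the 15, with 2.79, 2.63 and 2.77 (SD 0.09), although ECM4 and GSH2 each moved more than that between arrays. Both were lowest in hybridisation 1 and highest in hybridisation 3. GTO3 minus GSH2 was the least steady, with 3.64, 2.04 and 1.69.

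**Figure D3:**
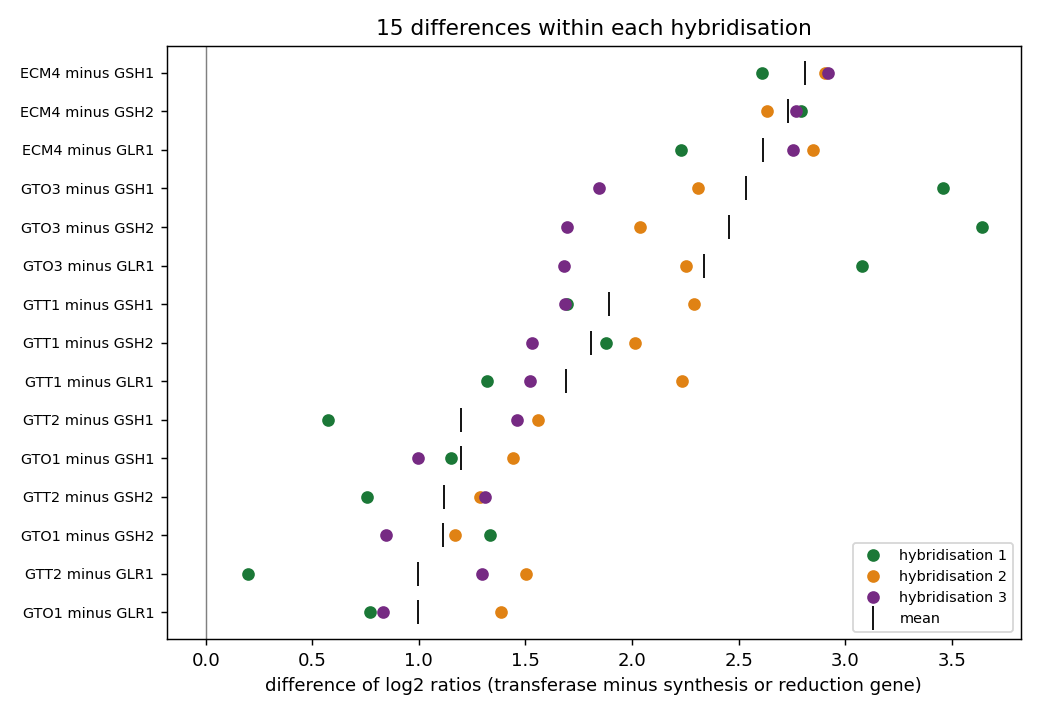
Difference of log2 ratios within an array, transferase minus gene of synthesis or reduction (horizontal axis), for the 15 pairs (vertical axis, sorted by mean), with a coloured point for each hybridisation and a black tick for the mean. All 45 points lie right of 0, the nearest being GTT2 minus GLR1 in hybridisation 1 at 0.20.

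By mean ratio the order was ECM4, GTO3, GTT1, GTT2, GTO1, GLR1, GSH2 and GSH1. Most neighbours in this order did not differ beyond their spread. ECM4 exceeded GTO3 in hybridisations 2 and 3 and lay below it in hybridisation 1 (mean difference 0.28 ± 1.00). GTT2 and GTO1 had a mean difference of 0.002 ± 0.53 and changed places between arrays. GTO3 exceeded GTT1 in all 3 hybridisations, yet by 1.76 in hybridisation 1 and only 0.02 and 0.16 in the others. GTT1 exceeded GTT2 in all 3, by 1.12, 0.73 and 0.22. GLR1, GSH2 and GSH1 changed places between arrays, with mean differences of 0.12 ± 0.40 and 0.08 ± 0.24. GTO1 minus GLR1, where the sets meet, was 0.77, 1.39 and 0.83.

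Against the mean of hybridisations 2 and 3, hybridisation 1 was lower for 7 of the 8 genes and higher for 1. The share of all genes that were lower in hybridisation 1 was not counted, so the 7 cannot be set against it. Over the tested genes the median was -0.08 in hybridisation 1, -0.02 in hybridisation 2 and -0.01 in hybridisation 3. Hybridisation 1 was lower by 1.24 for GTT2, the widest such gap among the 7, and higher by 1.07 for GTO3. The absolute gap had a median of 0.442 over all tested genes, and 10% of genes exceeded 1.17. GLR1 moved least, with a difference of -0.04. Of the 24 gene and hybridisation values, 19 had both scans, with a median gap between scans of 0.178, a gap above 0.5 in 4 and opposite signs in 0.

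By Euclidean distance over the 3 hybridisation ratios, the genes nearest to ECM4 were the hexokinase gene HXK1 (1.61, 2.16 and 2.74), the vacuolar aminopeptidase gene APE1 (1.80, 2.17 and 2.25) and TFS1 (1.85, 2.25 and 2.22), at distances of 0.246, 0.348 and 0.378. Those nearest to GTT2 were the alanine transaminase gene ALT1 (-0.17, 0.90 and 1.14), the mitochondrial ribosomal protein gene MRPL49 (-0.15, 0.85 and 1.05) and HFD1 (-0.41, 0.89 and 1.203), at 0.073, 0.131 and 0.190. Those nearest to GSH1 were TDP1, RVB2 and UBP1, at 0.061, 0.066 and 0.068, with means of -0.58, -0.64 and -0.61. Likeness over 3 arrays of this size is a description only, and more genes lie near GSH1, in the body of the distribution, than near ECM4 in its tail.

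Genes around the 8 were divided. In 10 related lists, each gene counted once, 62 of 65 genes were tested, of which 8 rose, 8 fell and 46 did not pass. These are 8 of 62 in each direction, where 9.14% of all genes were called higher and 11.9% lower, so the related genes passed about as often as genes at large. Their median was 0.22, against -0.02 for all genes. Counts for the single lists below are to be read beside the same shares, 9.14% higher and 11.9% lower. No list was tested as a set against them.

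Of 8 glutaredoxin genes, whose products use glutathione to reduce disulfides, GRX1 rose, GRX4 fell and 6 did not pass, with a list median of 0.03. GRX1, a cytosolic dithiol glutaredoxin, had ratios of 0.61, 1.82 and 1.39, lowest in hybridisation 1 like GTT1 (mean 1.27 ± 0.61, adjusted p = 0.0203 by limma). Its close relative GRX2 had 0.33, 0.60 and 0.89 and did not pass (adjusted p = 0.0679 by limma). GRX4, a monothiol glutaredoxin that takes part in iron regulation, had -1.25, -1.06 and -0.89 (mean -1.06 ± 0.18, adjusted p = 0.0139 by limma), while its partner GRX3 had 0.28 ± 0.25.

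Of the 3 glutathione peroxidase genes, HYR1, whose product senses peroxide for Yap1, rose with ratios of 0.62, 0.82 and 1.27 (mean 0.90 ± 0.33, adjusted p = 0.0260 by limma). GPX2 fell, with -1.45, -1.06 and -0.52 (mean -1.01 ± 0.47, adjusted p = 0.0263 by limma). GPX1 had 0.26, 1.01 and 1.14 and lay just outside the threshold (adjusted p = 0.0502 by limma).

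Of 5 glutathione breakdown genes 0 passed by limma in either direction, with a median of 0.31. At an unadjusted p under 0.05, where 38.6% of all genes passed, 3 did. ECM38 and GCG1 had positive means there and DUG2 a negative one. ECM38, the gamma-glutamyl transpeptidase, had 0.76 ± 0.48, and DUG2, of the Dug1 to Dug3 pathway, had -0.47 ± 0.18. In transport, 4 of 6 listed genes had a named feature on the array. OPT1, the high-affinity importer of glutathione, fell, with -1.17, -0.88 and -1.13 (mean -1.06 ± 0.16, adjusted p = 0.0138 by limma). GEX1, a glutathione exporter, had 0.66 ± 0.22 and passed narrowly (adjusted p = 0.0497 by limma), and its near-identical copy GEX2 had 0.52 ± 0.60, so the 2 values may not belong to separate transcripts.

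Of 5 genes that clear aldehydes through glutathione, 2 rose and 0 fell, where 9.14% of all genes were called higher and 11.9% lower. The median of the 5 was 0.69. GLO4, the mitochondrial glyoxalase II, had 0.97, 0.73 and 0.81 (mean 0.84 ± 0.12, adjusted p = 0.0219 by limma), and YJL068C, the S-formylglutathione hydrolase, had 0.55, 0.71 and 1.05 (mean 0.77 ± 0.26, adjusted p = 0.0351 by limma). GLO1, glyoxalase I, had 0.69 ± 0.44, and SFA1, the formaldehyde dehydrogenase that acts on the glutathione adduct, had -0.33 ± 0.31.

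Among genes listed here as transferase-like and outside the 8, 4 of 5 were tested, with 1 higher and 2 lower. The open reading frame YGR201C rose (mean 0.96 ± 0.18, adjusted p = 0.0174 by limma). GTT3 fell (mean -0.68 ± 0.22, adjusted p = 0.0467 by limma), and so did TEF4, the gamma subunit of translation elongation factor 1B (mean -0.95 ± 0.64, adjusted p = 0.0476 by limma). Whether the GTT3 protein resembles a transferase was not examined.

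Of 6 genes of cysteine and sulfur supply, HOM3, the aspartate kinase, fell (mean -1.10 ± 0.70, adjusted p = 0.0367 by limma) and 0 rose. CYS3, the cystathionine gamma-lyase that makes the cysteine used by GSH1, had 2.14, -0.99 and -0.73. MET17, which makes homocysteine, had 1.00, -0.27 and -0.43. STR3 had 1.39, 0.13 and 0.70. These 3 and HOM3 (-0.32, -1.66 and -1.32) were highest in hybridisation 1, as was the transferase gene GTO3, and so was MET4, the activator of sulfur genes from the list of regulators (1.73, 0.02 and 0.05). CYS4, with -0.21, 0.07 and 0.0013, and STR2, with -0.50, 0.17 and 0.13, were lowest in hybridisation 1. So were most of the 8 genes, namely GSH1, GSH2, GTT1, GTT2, ECM4 and GTO1. Hybridisation 1 had the widest spread over genes (SD 0.899, against 0.649 and 0.669). The shares of all genes lowest or highest in it were not counted, so no contrast between these genes is drawn. Among 8 genes of NADPH supply, SOL4, a 6-phosphogluconolactonase, rose (mean 1.52 ± 0.74, adjusted p = 0.0172 by limma) and GND1, the main 6-phosphogluconate dehydrogenase, fell, with -0.79, -0.69 and -0.77 (adjusted p = 0.0293 by limma). ZWF1, which starts the pentose phosphate pathway, had 0.09 ± 0.26.

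Of 8 regulator genes, CAD1, a relative of Yap1, rose (mean 0.94 ± 0.38, adjusted p = 0.0263 by limma), and SKN7, which acts with Yap1 in the oxidative stress response, fell (mean -0.71 ± 0.13, adjusted p = 0.0367 by limma). YAP1 had 1.21, 0.36 and 0.56 and did not pass (adjusted p = 0.0638 by limma). Of 12 Yap1 targets outside the 8, GPX2 fell and 0 rose by limma, with a median of 0.25. At an unadjusted p under 0.05, where 17.7% of all genes were higher, 5 were higher. Among these, OYE3 had 2.72 in hybridisation 1, against 0.60 and 0.46 in the other two, and TSA1 had 1.92, against 0.68 and 0.38. GSH1 and GLR1, which are also known Yap1 targets, had their negative ratios on the same arrays. Which others of the 8 are Yap1 targets was not examined, and the part of Yap1 in these ratios was not tested.

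**Figure D4:**
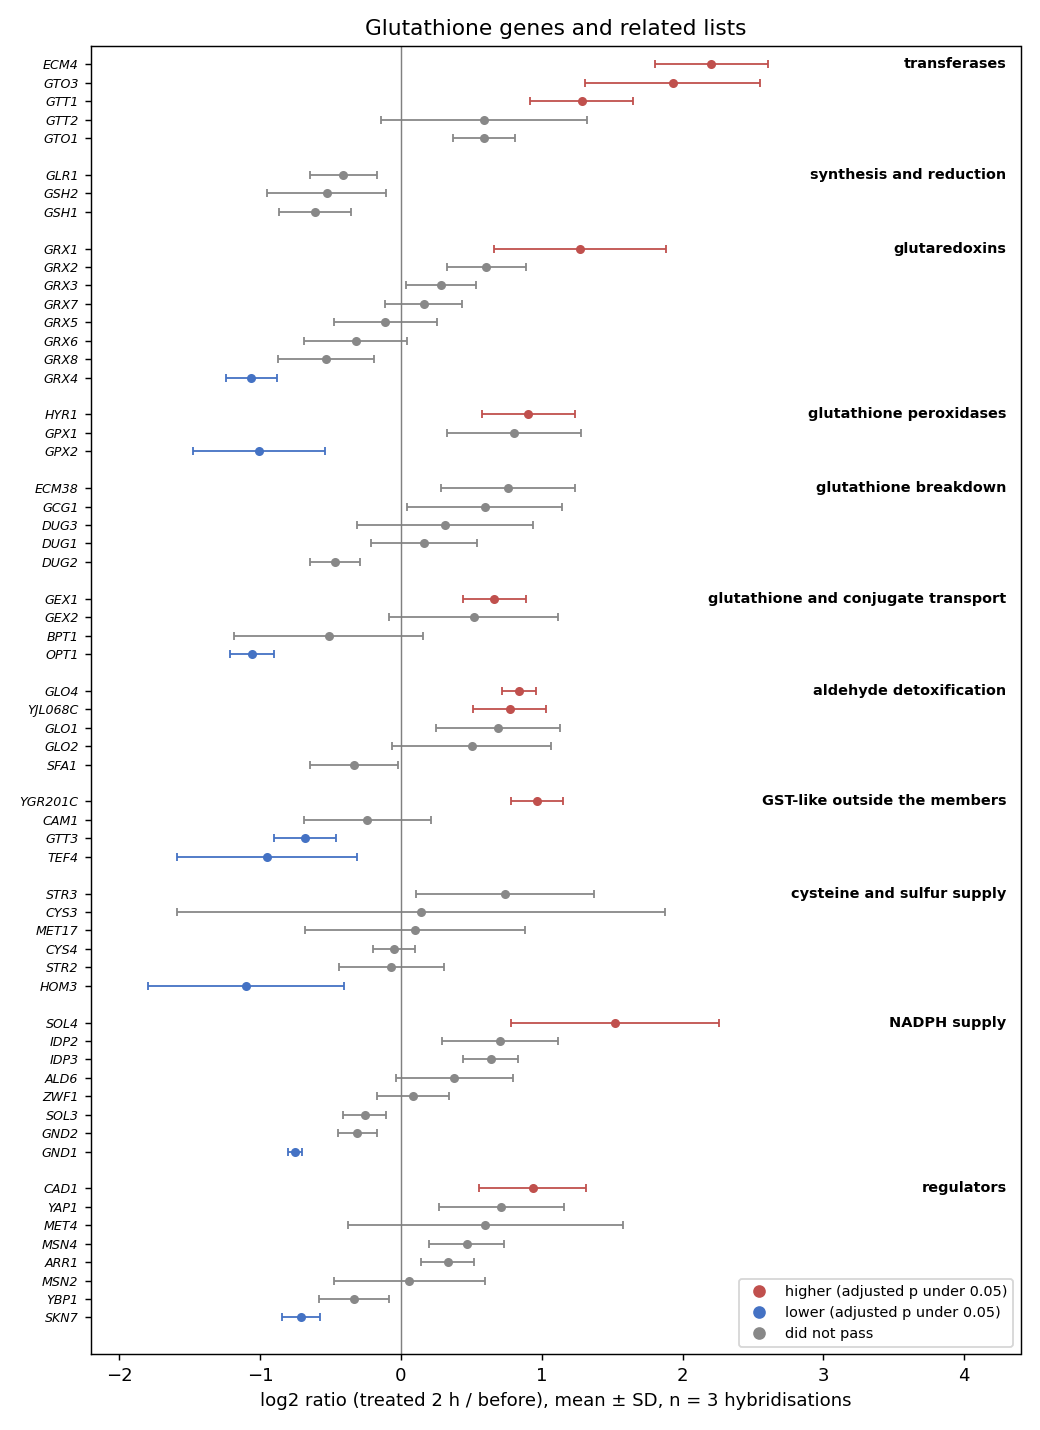
Mean log2 ratio of treated over untreated cells ± SD over 3 hybridisations (horizontal axis) for the 8 genes and 9 of the related lists (vertical axis), with genes past the threshold in red where higher and in blue where lower. ECM4 and GTO3 have the 2 highest means shown, and most related lists hold genes on both sides of 0.

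Lists of other cell states were read as a check of the culture. Of 10 sporulation and meiosis genes SPS4 fell and 0 rose, with a median of 0.12. Of 4 tested mating genes PRM1 fell and 0 rose, with a median of -0.54. Of 7 stationary phase genes SIP18 rose and 0 fell, with a median of 0.54. Beside these counts stand 9.14% of all genes called higher and 11.9% lower. SPO11, SPS1 and SIP18 had 3.86, 2.51 and 2.51 in hybridisation 1, against at most 0.81 in the others. In hybridisation 1 IME1 (-0.19), IME2 (-0.03), NDT80 (-0.06), DMC1 (-0.05), SPS4 (-0.84), SNO1 (-0.58) and all tested mating genes were below 0. The other sporulation and stationary phase genes were above 0 there. The part of these states in the ratios of the 8 genes was not tested.

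The calls rested on which arrays were kept. Without hybridisation 1, all 5 transferases rose and GSH1 fell, on a fit that called 20.8% of all genes higher and 21.9% lower. Without hybridisation 2 the same 3 transferases rose, ECM4, GTO3 and GTT1, and 0 genes of synthesis and reduction passed. The fit without hybridisation 2 called 6.97% of all genes higher and 7.35% lower. Without hybridisation 3 none of the 8 passed by limma, on a fit that called 1 gene of 5349. At an unadjusted p under 0.05 ECM4, GTO3 and GTT1 were higher there and GSH1 was lower. The share of all genes at that threshold was not counted in this fit, so these passes cannot be set against it. The related lists had 8 higher and 8 lower with all 3 hybridisations kept, and 21 higher and 14 lower without hybridisation 1. They had 6 and 2 without hybridisation 2, and 0 and 0 by limma without hybridisation 3. In that last fit unadjusted p-values under 0.05 were found for 12 with positive and 5 with negative means. These counts too have no share of all genes beside them. The sign of the mean of each of the 8 genes was the same in every alternative in which it was tested.

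**Figure D5:**
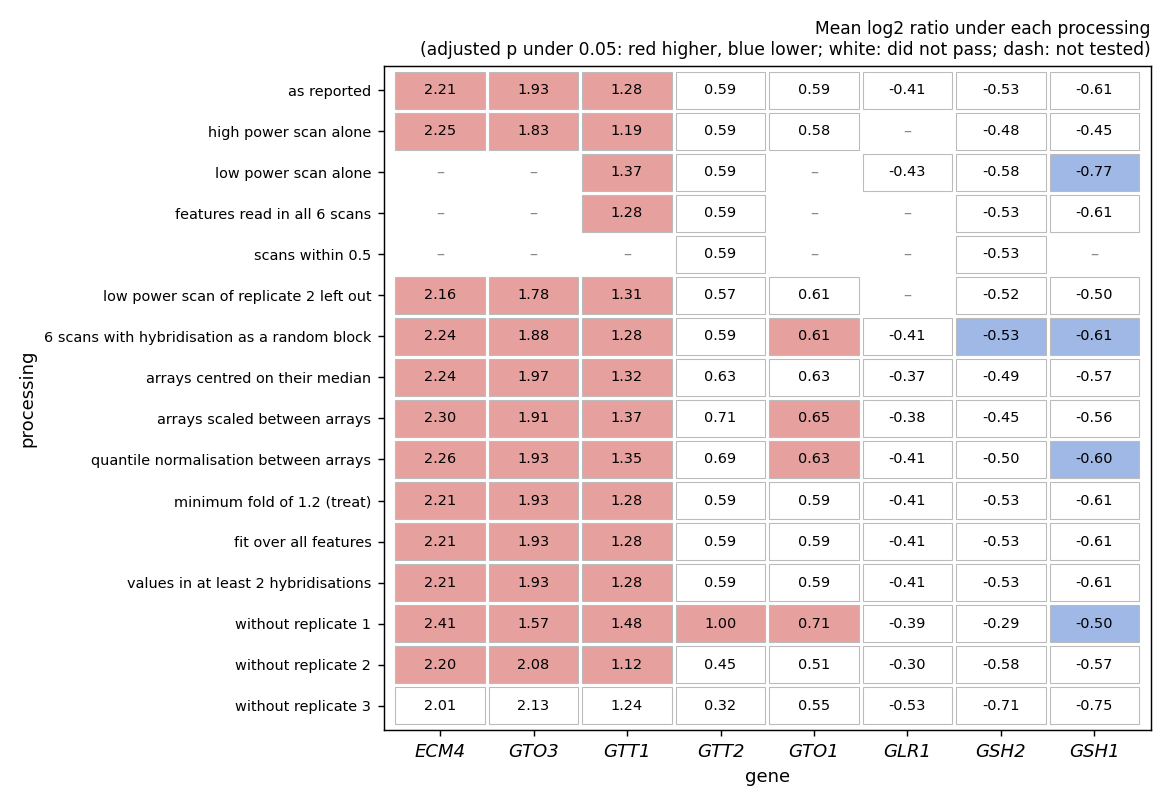
Mean log2 ratio of treated over untreated cells for the 8 genes (columns) under the reported processing and 15 alternatives (rows), shaded red where higher and blue where lower at an adjusted p under 0.05, white where the gene did not pass, and with a dash where it was not tested. ECM4, GTO3 and GTT1 are red wherever tested except without replicate 3, while GTT2 is red only without replicate 1.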

How the data were processed

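The authors deposited 1 table of ratios, read here as log2 since no base is stated, with a column for each of 6 scans. Per the labels' descriptions, values were LOWESS-normalised over spots with flag 0. For the scanner, the spot software and any background correction nothing is given in the sources used here, the authors' merged column was not used, and no intensities or genome build were used, so no coordinates are given. With 3 arrays, their number limits the precision.

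Of 6912 features, 5513 had 1 gene name in the platform annotation, 0 had several and 1399 had none. Names were updated through the R64 gene table (5508 matched). The scans of a hybridisation were averaged, or a single scan used, then features of a gene. A value in all 3 hybridisations was needed, which 5349 of 5365 genes had. An intercept-only model (lmFit and eBayes of limma 3.58.1, under R 4.3.3) tested each mean against 0, two-sided, with Benjamini-Hochberg adjustment and a threshold of 0.05. The 8 genes, the lists and the rule for names (the 8, the related lists and the 3 genes nearest to ECM4, GTT2 and GSH1) were chosen with earlier results of these data known. The 15 alternatives concern scans, scaling, minimum fold, features, missing values and leaving out each hybridisation. No sequences were used, so planned comparisons of promoter motifs and protein identity were not made, and cross-hybridisation between related transferase genes was not examined.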

Additional observations from a re-analysis of the deposited data

How the results depend on the processing

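The 8 genes gave 105 values under 15 alternatives. In 92 the gene stayed on its side of the threshold, in 10 it newly passed, in 3 it no longer passed (ECM4, GTO3 and GTT1, each without replicate 3), and in 0 the sign turned. The difference of transferases minus synthesis and reduction was 1.61 to 1.97 when 1 replicate was left out, and 1.12 with scans within 0.5, where GTT2 and GSH2 alone were tested. Of the 8 genes, 0 to 5 were higher and 0 to 1 lower with 1 replicate left out. With the low power scan alone 1 was higher and 1 lower (5 tested), with features read in all 6 scans 1 was higher (4 tested), with scans within 0.5 0 were higher by limma (2 tested), with the 6 scans in a random block 2 were lower, and after quantile normalisation 1 was lower. The related lists, an alternative chosen after seeing the data, had 0 to 21 higher and 0 to 14 lower with 1 replicate left out. Over all genes, against 489 higher and 636 lower, 1 to 1111 were higher and 0 to 1170 lower with 1 replicate left out. With the low power scan alone 417 were lower, with features read in all 6 scans 289 were higher and 255 lower, with scans within 0.5 164 and 161, and with a minimum fold of 1.2 230 and 284. With the 6 scans in a random block 803 were higher. The low power scan alone, features read in all 6 scans and scans within 0.5 test fewer genes (3444, 2672 and 1514), and other causes of these shifts were not tested. Each ratio already pairs the treated and untreated RNA of 1 array, so the fit is paired and there was no further replicate block to add. Spot intensities were not analysed here, so dim spots were not weighed.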
